A study of Oryza sativa with 12 samples.

Results

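The high-affinity nitrate and ammonium transporter genes described here are 9 genes that were taken by locus identifier from a list of 4 NRT2 genes, NAR2.1, 3 AMT1 genes and ammonium transporter 2 member 3, out of 57501 gene models in the count table. All 9 were found. Plants take up nitrogen from dilute soil solutions as nitrate and as ammonium, through separate families of high-affinity carriers. NRT2 proteins import nitrate together with protons, and several of them reach the plasma membrane and work only when paired with the small partner protein NAR2.1. AMT1 proteins carry ammonium into root cells, and AMT2 proteins form a further branch of the ammonium transporter family.

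Polyadenylated RNA was sequenced from roots and shoots of hydroponically grown rice (Oryza sativa) at an age of 21 days, with 3 libraries in each of 4 groups. OX6 root and OX6 shoot came from a line that overexpresses Zaxinone Synthase (ZAS), a carotenoid cleavage enzyme that forms the apocarotenoid zaxinone. WT root and WT shoot came from the wild type Nipponbare (NB). Each sample title carries a letter P that the labels do not explain. The labels name no promoter, vector or second line, and give no nitrogen content of the nutrient solution, so an effect of ZAS cannot be told apart from another difference between the 2 stocks. They also do not say whether libraries of a group came from separate plants, and p-values here speak of the spread between libraries, which can be technical.

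Total counts ran from 32269044 to 62910092 per library. The ZAS locus (LOC_Os09g15240) had at least 12637 counts in each OX6 root library and at most 124 in each WT root library, and at least 51763 in OX6 shoots against at most 26 in WT shoots. Tissue labels were checked with marker genes. The silicon transporters Lsi1 and Lsi2 summed to 4924.1 to 6644.9 CPM (counts scaled by library size, the usual CPM unit, on 1 scale for all 12 libraries) in roots and 9.3 to 18.6 CPM in shoots. Rubisco, Rubisco activase and antenna genes summed to 7.8 to 31.9 CPM in roots and 55841.7 to 73889.8 CPM in shoots.

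Most of these genes were root transcripts. Scaled by gene length, AMT1.2 (LOC_Os02g40730), AMT1.1 (LOC_Os04g43070) and the nitrate partner gene NAR2.1 (LOC_Os02g38230) were the 3 highest in roots of both genotypes. AMT1.2 averaged 68.3 ± 1.56 CPM per kilobase in OX6 root and 73.7 ± 13.1 in WT root (SD, n = 3 each, as throughout). NAR2.1 averaged 40.9 CPM per kilobase in OX6 root and 42.3 in WT root, and AMT1.1 averaged 40.1 in OX6 root and 37.3 in WT root. The ranges of NAR2.1 and AMT1.1 overlapped in both genotypes, so these neighbours in the order did not differ beyond their spread. AMT2.3 (LOC_Os01g61510) followed with 10.9 in OX6 root and 12 in WT root, then AMT1.3 (LOC_Os02g40710) with 7.07 in OX6 root and 8.72 in WT root. Next were NRT2.3 (LOC_Os01g50820), with 1.33 CPM per kilobase in OX6 root and 1.53 in WT root, and NRT2.2 (LOC_Os02g02190), with 0.222 in OX6 root and 0.302 in WT root. NRT2.1 (0 in OX6 root and 0.0162 in WT root) and NRT2.4 (0 in both) were below them.

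**Figure D1:**
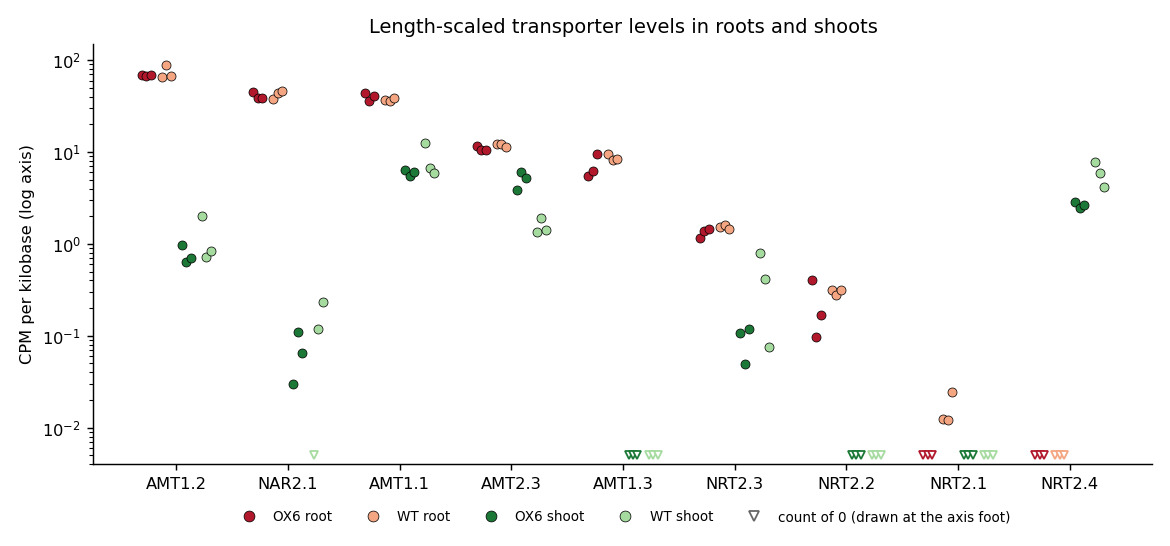
Length-scaled level of each of the 9 genes (CPM per kilobase, logarithmic axis). Each point is 1 library of OX6 root, WT root, OX6 shoot or WT shoot, and open triangles mark libraries with a count of 0. AMT1.2, NAR2.1 and AMT1.1 lie highest in roots, AMT1.1 and AMT2.3 hold the highest shoot levels in OX6, and NRT2.4 has counts in shoots alone.

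The order in shoots was different. AMT1.1 led in both genotypes with 5.95 CPM per kilobase in OX6 shoot and 8.35 in WT shoot, and AMT2.3 came second in OX6 shoot (5.02) while NRT2.4 (LOC_Os01g36720) came second in WT shoot (5.97). In each genotype the ranges of the first and second gene overlapped. AMT1.2 had 0.77 CPM per kilobase in OX6 shoot and 1.19 in WT shoot. AMT1.1 thus made up 88.6% ± 1.73 of the summed length-scaled level of the 3 AMT1 members in OX6 shoot. In WT shoot its share was 88% ± 2.12. In roots its share was 34.7% ± 2 in OX6 and 31.4% ± 3.71 in WT. The sum leaves out LOC_Os04g28270, a further model named ammonium transporter 1 member 2 in the file. That model had 0.223 CPM per kilobase in OX6 shoot and 0.427 in WT shoot, and 0.174 in OX6 root and 0.25 in WT root.

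The 2 tissues were compared within each genotype by edgeR's quasi-likelihood test in 1 fit of the 12 libraries, where a gene was called when its p-value, adjusted by the Benjamini-Hochberg method across the whole table, was under 0.05. Of the 8 members tested, 7 were called higher in root and 1 lower in root than in shoot, in OX6 and in WT. Of all genes tested, 73.8% were called between the OX6 tissues (37.3% higher and 36.5% lower in root) and 73% between the WT tissues (37.6% higher and 35.4% lower in root). NRT2.2, NRT2.3, NRT2.4, NAR2.1 and AMT1.3 entered the test through 1 tissue alone, so the count says little beyond the levels. NAR2.1 had 43.1, 36.7 and 37.2 CPM in the OX6 root libraries, against 0.0286, 0.106 and 0.0626 CPM in OX6 shoot. In WT it had 36.2, 41.5 and 43.5 CPM in root and 0, 0.113 and 0.223 CPM in shoot, so the tissues lay far apart in both genotypes.

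Shoot levels differed in how far they fell below root levels. The mean shoot level was 14.8% of the root level for AMT1.1 in OX6 and 22.4% in WT, and for AMT1.2 1.13% in OX6 and 1.62% in WT. For AMT2.3 it was 45.9% in OX6 and 13% in WT. AMT1.3 had no count in any of the 6 shoot libraries. A floor of 3 counts over each shoot group puts AMT1.3 at least 353-fold higher in OX6 root than in OX6 shoot and at least 517-fold higher in WT root than in WT shoot.

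NRT2.4 ran the other way. It had no count in the 6 root libraries and counts in all 6 shoot libraries, at least 180-fold higher in OX6 shoot than in OX6 root and at least 400.2-fold higher in WT shoot than in WT root by the same floor. In rice NRT2.4 has been described as a carrier that does not need NAR2.1. The related partner gene NAR2.2 (LOC_Os04g40410), which is not one of the 9, was also mainly counted in shoots, with 2.57 ± 0.412 CPM in OX6 shoot and 0.236 ± 0.0757 in OX6 root, and 2.61 ± 1.08 CPM in WT shoot against 0.601 ± 0.238 in WT root.

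NRT2.1 (LOC_Os02g02170) and NRT2.2 are known in rice as near-identical coding copies, and the file gives both models the same pair of homologue names. They lie 9948 bases apart on opposite strands of chromosome 2, at 655324 to 657245 and at 667194 to 669053, with 1 model between them. NRT2.1 drew 0 counts in each OX6 root library and 1, 1 and 2 counts in WT root. NRT2.2 drew 30, 8 and 14 counts in OX6 root and 25, 22 and 25 in WT root. Both had 0 counts in every shoot library, which allows at most 0.0315 CPM in OX6 shoot and 0.0265 CPM in WT shoot by the floor. How reads that match both copies were counted is not given in the sources used here, so these low values may not be the level of either gene. The same holds for the ratio of NAR2.1 to the summed NRT2 genes per kilobase, 26.3 ± 2.52 in OX6 root and 22.9 ± 2.47 in WT root, whose ranges overlapped.

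Setting OX6 root against WT root asks whether overexpression of ZAS went with altered levels of the uptake genes. None of the 7 tested members was called by edgeR, and 0 had an unadjusted p under 0.05. DESeq2 and limma-voom also called 0. Among all 26574 genes tested in roots, 2.83% were called, 1.19% higher and 1.64% lower in OX6. With 7 genes at that share, a count of 0 is near the background. NRT2.1 and NRT2.4 were not tested because their counts were too low.

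**Figure D2:**
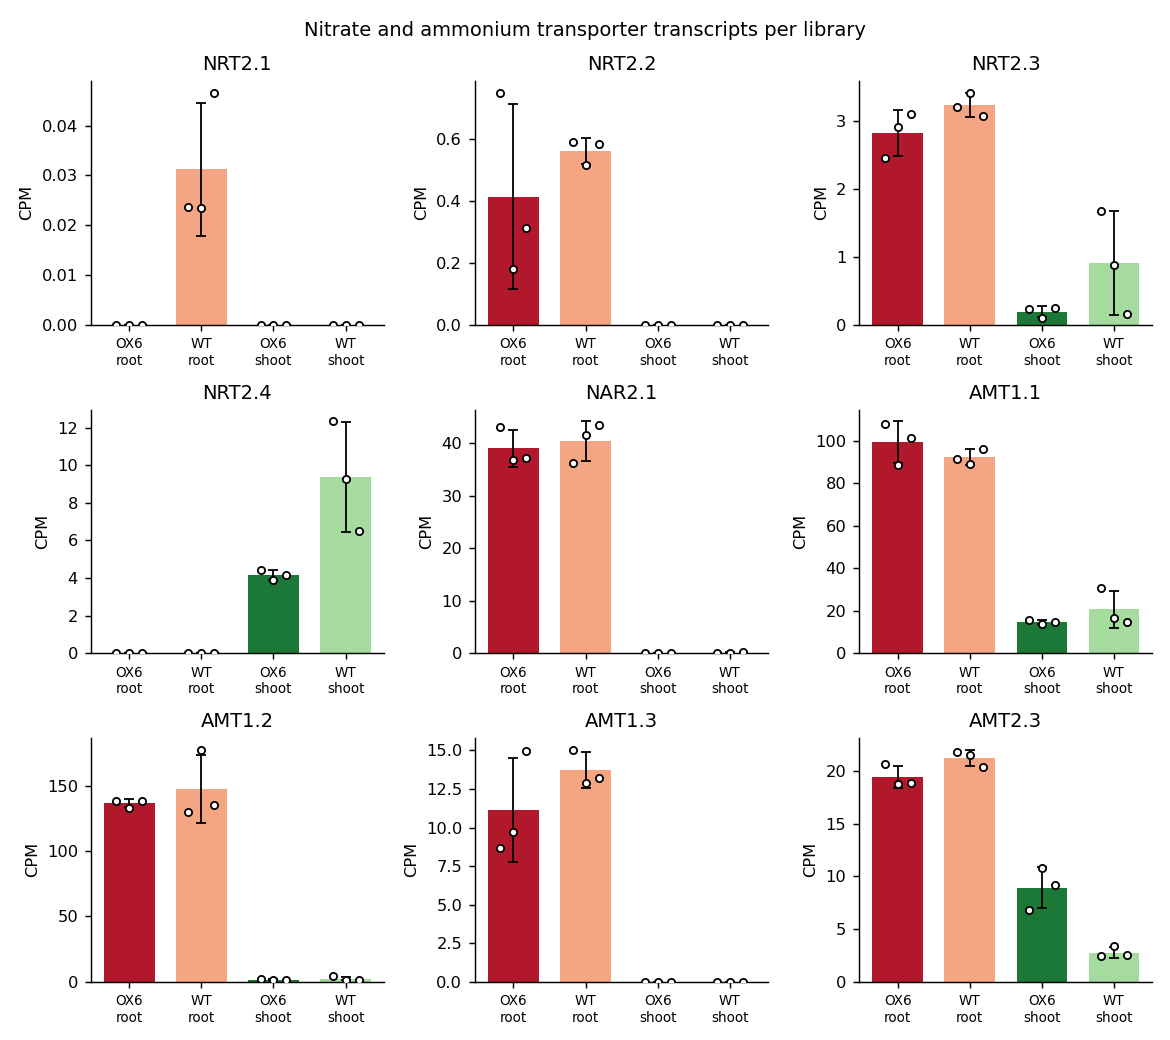
Level of each gene in CPM in OX6 root, WT root, OX6 shoot and WT shoot. Bars are means, error bars are SD of 3 libraries, and open points are single libraries. OX6 and WT roots overlap for each of the 7 genes tested in roots, and in shoots the OX6 and WT libraries of NRT2.4 and AMT2.3 stand apart.

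Of the root nitrate genes, none was called between the genotypes. NAR2.1, on chromosome 2 at 23121133 to 23123149, averaged 39 ± 3.56 CPM in OX6 root and 40.4 ± 3.79 CPM in WT root. Its log2 fold change was −0.05, with a 95% interval of −0.226 to 0.126 and an adjusted p of 0.868 in edgeR. NRT2.3, on chromosome 1 at 29188850 to 29190965, is linked in rice to the loading of nitrate for transport to the shoot. It had 2.45, 2.92 and 3.09 CPM in OX6 root against 3.21, 3.42 and 3.08 CPM in WT root (log2 fold change −0.19, interval −0.55 to 0.166, edgeR adjusted p = 0.705). NRT2.2 was too thinly counted to be bounded closely, with an interval of −1.46 to 0.544 around −0.46. The NRT2 genes summed to 3.20, 3.10 and 3.41 CPM in OX6 root, against 3.82, 3.95 and 3.70 CPM in WT root. Each OX6 sum was below each WT sum, and the sum, which holds the uncertain NRT2.2 counts, was not tested.

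The root ammonium genes also overlapped between genotypes. AMT1.2, on chromosome 2 at 24690884 to 24692884, is the ammonium-induced root carrier of rice. It had 138.5, 133.1 and 138.5 CPM in OX6 root and 129.7, 177.5 and 135.1 CPM in WT root. The second WT library was the highest of the 6 and the others lay close together, giving a log2 fold change of −0.11 (interval −0.334 to 0.119, edgeR adjusted p = 0.745), or 0.05 without WT root replicate 2. AMT1.1, on chromosome 4 at 25500158 to 25502633, had 108.1, 88.5 and 101.4 CPM in OX6 root and 91.5, 89.3 and 96.3 CPM in WT root (log2 fold change 0.11, interval −0.05 to 0.261, edgeR adjusted p = 0.593). AMT2.3 had 20.7, 18.8 and 18.9 CPM in OX6 root and 21.9, 21.5 and 20.4 CPM in WT root (log2 fold change −0.13, interval −0.292 to 0.0344, edgeR adjusted p = 0.519). Among NAR2.1, AMT1.1, AMT1.2 and AMT2.3, the interval that reached furthest from 0 was that of AMT1.2, to −0.334. The intervals of NRT2.3 (to −0.55), AMT1.3 (to −0.746) and NRT2.2 (to −1.46) reached further.

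AMT1.3 was the one root gene whose call hung on a single library. It lies on chromosome 2 at 24683633 to 24685205, 5678 bases from AMT1.2 on the same strand. It had 8.65, 9.74 and 15 CPM in OX6 root against 15.1, 12.9 and 13.2 CPM in WT root. The first and second OX6 libraries were below all WT libraries and the third was inside their range. The log2 fold change was −0.3 (SE 0.195, edgeR adjusted p = 0.597), and without OX6 root replicate 3 it was −0.58 with an adjusted p of 0.0115. Over its 15 alternatives the adjusted p ran from 0.0115 to 0.899, with the 1 call.

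**Figure D3:**
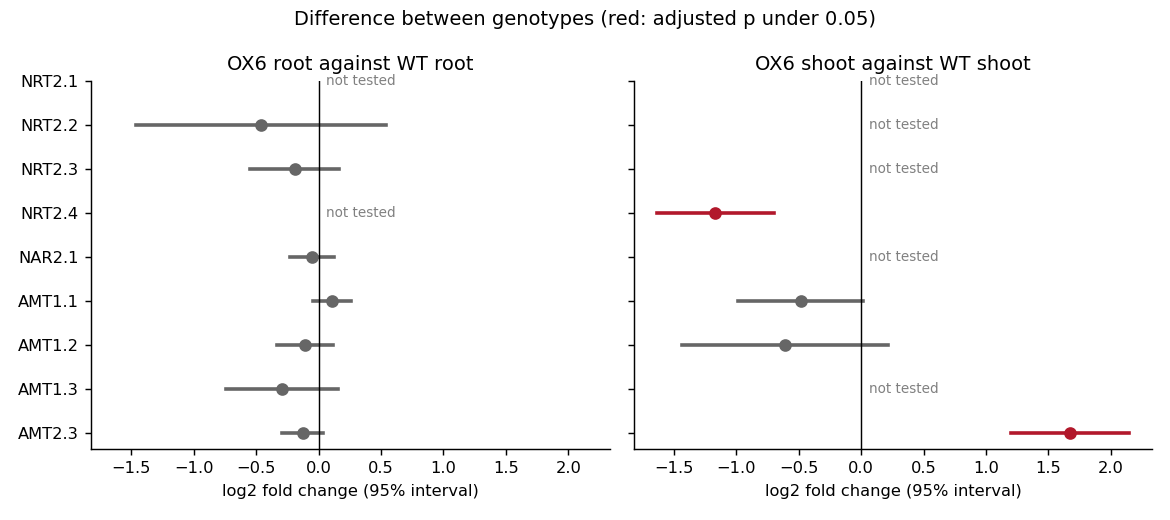
Log2 fold change of OX6 over WT in roots (left) and shoots (right) with the 95% interval, from the edgeR fit of each tissue. Red marks genes with an adjusted p under 0.05. All 7 tested genes in roots have intervals that include 0, and in shoots NRT2.4 is lower and AMT2.3 higher in OX6.

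In shoots, 2 of the 4 tested members were called. AMT2.3 rose 3.19-fold in OX6 shoots and NRT2.4 fell 2.25-fold there. Of 26251 genes tested in shoots, 5.64% were called, 3.18% higher and 2.46% lower, or 834 and 647 genes. Under upper-quartile scaling 783 were higher and 799 lower. NRT2.1, NRT2.2, NRT2.3, NAR2.1 and AMT1.3 were below the count filter in shoots.

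AMT2.3 lies on chromosome 1 at 35585865 to 35588377, on the minus strand. It had 6.85, 10.8 and 9.17 CPM in OX6 shoot against 2.41, 3.37 and 2.52 CPM in WT shoot. Each OX6 library was above each WT library. The means were 8.93 ± 1.97 CPM in OX6 shoot and 2.77 ± 0.523 CPM in WT shoot (log2 fold change 1.67, SE 0.225, edgeR adjusted p = 0.000137). It was called in all 15 alternative analyses of shoots, with log2 fold changes of 1.52 to 1.85.

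The genotype difference of AMT2.3 itself differed between the tissues. The interaction, the OX6 to WT difference in roots minus that in shoots, was −1.79 (SE 0.22, edgeR adjusted p = 0.000169), and AMT2.3 was the 1 member called among 8 tested, 3 of which could not be estimated. Of all genes tested, 1.97% were called in this comparison, 201 with a positive (0.692%) and 371 with a negative interaction (1.28%), or 278 and 312 under upper-quartile scaling. The 3 members that could not be estimated were NRT2.2, NRT2.4 and AMT1.3, for which 1 tissue held no counts. NRT2.3 had a larger but less precise interaction of 1.96 (SE 0.716, interval 0.451 to 3.48). It was not called (edgeR unadjusted p = 0.014, adjusted p = 0.218), and its shoot counts were low.

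NRT2.4 lies on chromosome 1 at 20386195 to 20388517, on the minus strand. It had 4.44, 3.90 and 4.16 CPM in OX6 shoot, against 12.3, 9.28 and 6.51 CPM in WT shoot. The groups did not overlap, and the WT libraries were spread more widely than the OX6 libraries. The means were 4.17 ± 0.269 CPM in OX6 shoot and 9.38 ± 2.92 CPM in WT shoot (log2 fold change −1.17, SE 0.221, edgeR adjusted p = 0.00324). It was called in all 15 alternatives, with log2 fold changes of −1.36 to −0.924.

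The AMT1 genes of shoots were not called. AMT1.1 had 15.6, 13.7 and 14.9 CPM in OX6 shoot against 30.7, 16.6 and 14.8 CPM in WT shoot (log2 fold change −0.48, SE 0.23, edgeR adjusted p = 0.289). The first WT library stood well above the other 5, and without it the log2 fold change was −0.09 (adjusted p = 0.829). Without WT shoot replicate 3 it was −0.67 (adjusted p = 0.0492), and without the count filter the adjusted p was 0.0202. AMT1.2 had 1.95, 1.27 and 1.41 CPM in OX6 shoot and 4.02, 1.45 and 1.69 CPM in WT shoot (log2 fold change −0.61, edgeR adjusted p = 0.447, or −0.0163 without WT shoot replicate 1).

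NRT2.3 had 8, 3 and 8 counts in OX6 shoot against 48, 47 and 5 counts in WT shoot, or 0.229, 0.106 and 0.25 CPM against 1.68, 0.884 and 0.16 CPM. The third WT library lay within the OX6 range. The gene missed the count filter of the shoot fit. In the fits that kept it, its log2 fold change was −2.66 to −1.9 with adjusted p-values from 0.0239 (without WT shoot replicate 3) to 0.342 (without OX6 shoot replicate 2). The adjusted p was 0.0438 with no filter and 0.03 in the 12-library fit. Leave-one-out fits kept the gene only where both high WT libraries stayed in. The 0.0239 came from leaving out the WT library within the OX6 range. The 12-library fit also holds the roots, where the gene had more counts. The leave-one-out and 12-library values depend on how the gene was admitted, so they cannot decide whether it differed in shoots.

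WT shoot replicate 1 held the highest level of NRT2.3, NRT2.4, AMT1.1 and AMT1.2 among the WT shoots. It held the lowest of AMT2.3 and of NAR2.1 (0 CPM, against 0.113 and 0.223 CPM). NAR2.1 was mainly a root transcript and NRT2.4 had no count in roots, and carry-over of root tissue was not tested. The silicon transporter genes, markers of root tissue, summed to 18.6 CPM in that library, against 11.9 and 11.1 CPM in the other WT shoots and 9.3 to 11.5 CPM in OX6 shoots. Without it AMT2.3 and NRT2.4 were both still called. Of the 5 photosynthetic markers, all with an unadjusted p under 0.05, 0 rose and 2 fell in OX6 shoots, or 1 fell without OX6 shoot replicate 1 or replicate 3, and their sum was 55841.7 to 58815.9 CPM in OX6 shoot and 67133.3 to 73889.8 CPM in WT shoot. The part of this difference in the transporter results was not tested, and in whole organs fewer cells of a type and less RNA per cell cannot be told apart. In roots, 0 of 6 root cell layer markers rose and 1 fell in OX6, with 3 at an unadjusted p under 0.05 by edgeR. The fall was in the sodium transporter named HKT8 in the file (edgeR adjusted p = 0.000185, or 0.0868 in the 12-library fit). It had 6.67 ± 1.46 CPM in OX6 root and 14.1 ± 0.834 CPM in WT root. Without OX6 root replicate 1 the count of root cell layer markers called was 2. Of the 5 photosynthetic markers, which summed to 7.8 to 31.9 CPM in roots, 0 rose and 1 fell in OX6 root. That was chlorophyll a-b binding protein 1 (LOC_Os09g17740, log2 fold change −1.1, edgeR adjusted p = 0.00811), and 2 had an unadjusted p under 0.05.

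Other models named as ammonium transporters, and NAR2.2, gave no call in either tissue by edgeR, DESeq2 or limma-voom, with 1 in roots and 0 in shoots at an unadjusted p under 0.05. Of 11 such models, 9 were tested in roots with 0 higher and 0 lower (median log2 fold change −0.14, against 0.00 over all genes), and 7 in shoots with 0 higher and 0 lower (median −0.03, against −0.01 over all genes). AMT2.1 (LOC_Os05g39240), the constitutive member of its class in rice, was the most abundant family member in shoots per kilobase, with 17.7 ± 1.79 in OX6 shoot and 20.3 ± 3.65 in WT shoot (log2 fold change −0.2, SE 0.131, edgeR adjusted p = 0.454). AMT2.2 (LOC_Os01g61550), which lies 8714 bases from AMT2.3 on the same strand, had 1 count over the 3 OX6 shoot libraries and 0 over the 3 WT shoot libraries. In roots AMT2.2 averaged 5.98 ± 1.19 CPM in OX6 and 6.58 ± 0.895 CPM in WT. AMT2.3 was the one model of its class called in shoots, where AMT2.1 was the only other with enough counts to test. The remaining model named in the class (LOC_Os01g42740) had no counts. Of the 3 models on each side of AMT2.3, examined after its values were seen, 1 could be tested in shoots, and its log2 fold change was −0.05.

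**Figure D4:**
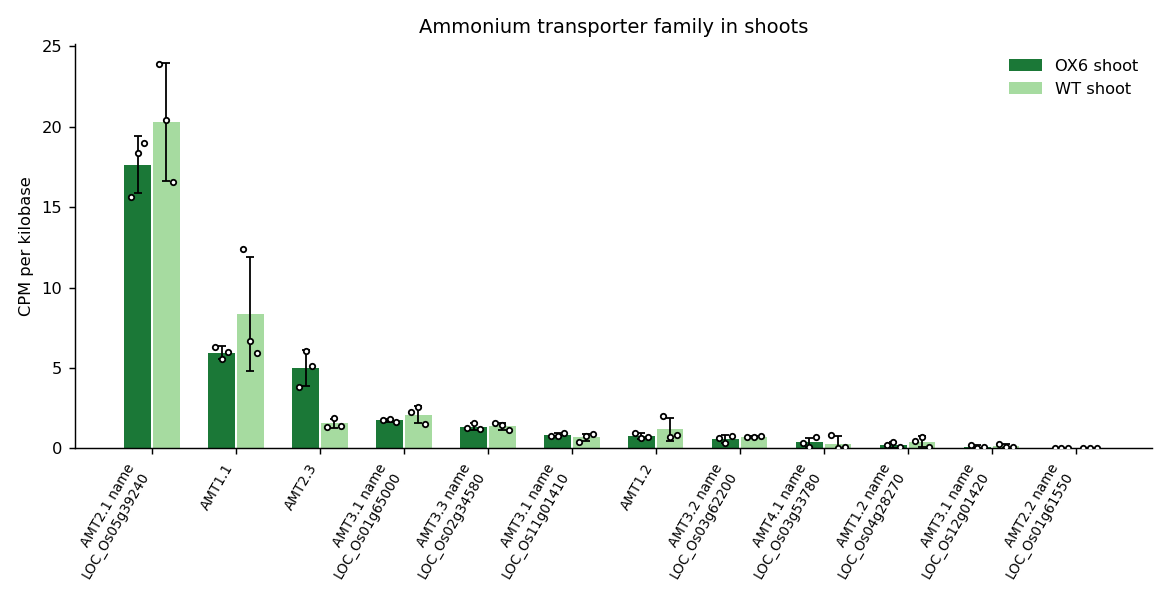
Length-scaled level (CPM per kilobase) of the ammonium transporter family models with a count in shoots, OX6 shoot left of WT shoot. Bars are means, error bars are SD of 3 libraries and points are single libraries; models outside the 9 carry their locus identifier under the file's name. AMT2.3 averages 5.02 in OX6 shoot and 1.56 in WT shoot, and AMT2.1 is the highest model in both.

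Other nitrogen genes were counted by list. For comparison, the shares of all tested genes called were 1.19% higher and 1.64% lower in roots. In shoots they were 3.18% higher and 2.46% lower. Whether any list count departed from these shares was not tested. In roots, of 102 NPF models (the low-affinity nitrate and peptide transporter family), 86 were tested, 0 rose and 3 fell (median log2 fold change 0.01). NPF4.4 (LOC_Os11g12740) had 23.3 ± 1.87 CPM in OX6 root and 34.6 ± 5.54 CPM in WT root (edgeR adjusted p = 0.0114, or 0.0748 without OX6 root replicate 1). NPF6.3 (LOC_Os10g40600), a nitrate transporter, had 172.8 ± 25.7 CPM in OX6 root and 243.8 ± 10.5 CPM in WT root (edgeR adjusted p = 0.0124, or 0.067 without WT root replicate 3 and 0.0667 without OX6 root replicate 2). The third fall in roots was in NPF8.1 (LOC_Os01g67640, log2 fold change −1.51, edgeR adjusted p = 0.0394), called in 8 of 14 alternatives. The root count was 5 with no filter, 0 in the 12-library fit, and 1 without WT root replicate 3 or without OX6 root replicate 2. In shoots, of 80 NPF models tested 1 rose and 6 fell (median −0.14). The rise was that of NPF6.3, with 39.6 ± 6.65 CPM in OX6 shoot and 21.3 ± 4.29 CPM in WT shoot (log2 fold change 0.89, edgeR adjusted p = 0.00176). Among the 6 falls were NPF4.5 (LOC_Os11g17970, log2 fold change −0.55, edgeR adjusted p = 0.0124) and an NPF8.3 model (LOC_Os06g49210, −0.58, adjusted p = 0.0248). They were called in 12 and 10 of 15 alternatives. The count of NPF models called in shoots ran from 1 without any 1 of the OX6 shoot libraries to 14 without WT shoot replicate 3. It was 2 without WT shoot replicate 1 and 3 without WT shoot replicate 2.

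Among 5 nitrate and nitrite reductase models, 0 rose and 2 fell in roots (median log2 fold change −0.56), and 2 rose and 0 fell in shoots (median 0.26). Nitrate reductase LOC_Os02g53130, which turns nitrate into nitrite, fell to 131.2 ± 6.48 CPM in OX6 root, against 194.2 ± 12.7 CPM in WT root (edgeR adjusted p = 9.13e-05). In shoots the same gene rose 5.9-fold, with 55.5 ± 2.96 CPM in OX6 shoot and 9.44 ± 2.37 CPM in WT shoot (edgeR adjusted p = 8.03e-09). The second root call, nitrite reductase LOC_Os01g25484 (adjusted p = 0.0463), was lost in 8 of 15 alternatives, leaving out any 1 root library except OX6 root replicate 2 among them. The second shoot call, nitrate reductase LOC_Os08g36480 (adjusted p = 0.0113), had adjusted p-values of 0.059 and 0.0606 without OX6 shoot replicate 1 and replicate 3.

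Of 9 genes that build ammonium into glutamine, glutamate and asparagine, none was called in roots by edgeR, with 4 at an unadjusted p under 0.05, and in shoots 1 rose and 2 fell of 8 tested. The median log2 fold change was −0.1 in both tissues. Asparagine synthetase 1 (LOC_Os03g18130) rose to 22.9 ± 5.27 CPM in OX6 shoot, against 13.2 ± 2.77 CPM in WT shoot (edgeR adjusted p = 0.0106, or 0.109 without OX6 shoot replicate 3 and 0.0513 without WT shoot replicate 2). The 2 falls in shoots were in cytosolic glutamine synthetase 1-2 (LOC_Os03g12290, log2 fold change −0.59, edgeR adjusted p = 0.0128) and chloroplastic glutamine synthetase (LOC_Os04g56400, −0.45, adjusted p = 0.0168). They were called in 13 and 12 of 15 alternatives. The root count was 1 under DESeq2, with no filter and with the replicate block. The shoot count was 1 without any 1 of the OX6 shoot libraries. Of 10 regulators, namely 7 NIN-like proteins of the nitrate response with the factors IDD10 and MADS57 and the kinase CIPK23, 0 rose and 0 fell in roots, where 2 had an unadjusted p under 0.05 and DESeq2 and limma-voom called 0, and 0 rose and 1 fell in shoots. Their median log2 fold change was −0.02 in roots and −0.0027 in shoots. The fall was in an NLP1-named model (LOC_Os09g37710), with 17 ± 3.07 CPM in OX6 shoot and 27 ± 4.47 CPM in WT shoot (edgeR adjusted p = 0.0132, or 0.109 without OX6 shoot replicate 3 and 0.0553 without WT shoot replicate 2).

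Profiles most like those of the members were sought by the root mean square difference of centred log2(CPM + 1) values over the 12 libraries, among 20113 genes with at least 5 CPM in their highest group. This measure follows mainly the difference between root and shoot. NAR2.1 was nearest to the AT-hook protein 20 gene LOC_Os02g57520 (difference 0.0896), NPF3.1 (LOC_Os05g34030, 0.1) and wall-associated receptor kinase 2 (LOC_Os09g38800, 0.1). NRT2.4 was nearest to cytochrome P450 89A9 (LOC_Os08g05610, 0.114), AMT1.1 to GEM-like protein 4 (LOC_Os04g44500, 0.134) and AMT1.3 to auxin efflux carrier component 9 (LOC_Os01g58860, 0.153). No other member stood among these nearest genes.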

How the data were processed

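Polyadenylated RNA from roots and shoots was sequenced in 12 libraries, grouped by the sample titles. The authors deposited unnormalized counts of reads for each gene model. The submitters' processing notes name HISAT2 2.0.5 and featureCounts 1.5.0-p3. Not given in the sources used here: genome build, annotation release, strand setting and the handling of reads with several matches. Coordinates and gene lengths are those deposited by the authors, and no other model overlaps any of the 9 genes. Short names of members rest on the homologue names in the file, and the split of NRT2.1 from NRT2.2, the ZAS identity and the rice roles are background knowledge. No sequences were printed, since none were used here.

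Counts were tested with edgeR 4.0.16 (R 4.3.3, quasi-likelihood, robust, TMM scaling, filterByExpr with minimum count 10 and minimum total 15) in 2 fits of 6 libraries and, for tissues and interaction, 1 fit of 12. Each SE was taken as |log2 fold change| divided by the square root of F. Variation between libraries of a group (edgeR's common coefficient), which can be technical, came to 9.61% for the root fit, 16.2% for the shoot fit and 13.2% for all libraries. Levels are CPM on 1 scale from TMM over 12 libraries, and comparisons between genes use CPM per kilobase. Floors cover counting error only, and limit values to 0.0232 to 0.0315 CPM for a group at 0 (3 counts). The 95% intervals of log2 fold changes come from the edgeR fits and include the spread between libraries. Replicates differed by more than counting error (chi-square per gene 5.31 to 28), so each was kept as its own sample. Code was tested on simulated counts. Members, gene lists and tests were chosen with earlier results of these data known. All members are named. Of each list a selection is named, mostly called genes of small adjusted p, and other called genes stand in the counts alone. Results were recomputed with DESeq2 1.42.0, with limma-voom (limma 3.58.1), under upper-quartile or RLE scaling, without the filter, with a filter of CPM above 1 in 3 libraries, with a replicate block, all 12 libraries in 1 fit, NRT2.1 and NRT2.2 counts summed, and each library left out.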

Additional observations from a re-analysis of the deposited data

Results flagged for a closer look

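AMT2.3 was marked because its difference between the genotypes differed between the tissues by a test of that difference. In shoots OX6 was above WT and in roots the genotypes overlapped, and the interaction was −1.79 on the log2 scale (edgeR adjusted p = 0.000169). It was called in 20 of 20 alternatives, with values of −1.96 to −1.64.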

How the results depend on the processing

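AMT2.3 and NRT2.4 kept their direction and their call in shoots in all 15 alternatives each. The number of members called in shoots was 2 and became 4 with no filter (AMT1.1 and NRT2.3 added) and 3 in the 12-library fit, and it ran from 2 to 4 with 1 library left out. In roots it was 0 and ran from 0 to 1 with 1 library left out. For the interaction it was 1 and ran from 1 to 2, with NRT2.3 added without WT shoot replicate 3 (adjusted p = 0.0101). Direction turned in 3 cases, each with 1 library left out and none called. In roots NAR2.1 ran from −0.124 to 0.00861 (without WT root replicate 3) and AMT1.2 from −0.192 to 0.048 (without WT root replicate 2). The AMT1.2 interaction ran from −0.0588 (without WT shoot replicate 1) to 0.767. Causes were not tested. Over all genes, 753 were called in roots, 293 in the 12-library fit, and 407 to 773 with 1 library left out. In shoots 1481 were called, 2459 in the 12-library fit, and 708 to 1877 with 1 library left out, and for the interaction 572, against 1207 with DESeq2. Members called in the tissue comparisons numbered 7 under the CPM filter, which removes NRT2.2. Upper-quartile scaling shifted the median log2 difference of all genes between the OX6 tissues by 0.148. Among non-member genes and lists, 33 of 240 list counts moved by over 1.5 times. The labels do not pair the replicate numbers, and same-numbered libraries correlated from −0.157 to 0.122 in their deviations. With the replicate block 796 genes were called in roots, 1454 in shoots and 471 for the interaction, and the members called stayed at 0, 2 and 1. Counts were low for NRT2.1 and NRT2.2, and in shoots for NRT2.3 and NAR2.1, and their values are imprecise at this depth. Why they were low was not tested.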
